A study of Mus musculus with 8 samples.

Results

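The genes examined here encode splicing factors and heterogeneous nuclear ribonucleoproteins (hnRNPs), and they were compared between isolated hepatocytes of hCNR1+/+ and hCNR1-/- mice. They were chosen by name: every gene on the arrays whose symbol begins with Srsf, Hnrnp, Snrnp, Snrp, Sf3a or Sf3b, together with *Tra2a*, *Tra2b*, *Clk1* to *Clk4*, *U2af1*, *U2af2*, *Sfpq*, *Nono* and *Pspc1*. This gave 70 of the 21368 genes that could be named on the arrays, read by 116 probes. A gene was tested when 4 or more of the 8 arrays read one of its probes well above background, which held for 66 of them among 11072 genes in all. The probes of the other 4 were well above background on 1 array (*Sf3b1*, *Srsf12* and *Tra2b*) or on 0 arrays (*Hnrnph3*), and no fold change is given for them.

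Both groups were 4 male mice aged 12 to 14 weeks on standard diet, labelled with the strain CNRO. The hCNR1-/- mice lack the cannabinoid 1 receptor gene *Cnr1* in hepatocytes, because the Alb-Cre transgene, whose recombinase is made under the albumin promoter, was bred to mice with a floxed *Cnr1*; the hCNR1+/+ controls were littermates. Hepatocyte RNA of each mouse was labelled with Cy3 and hybridised to its own 1-colour Agilent array, so that the 8 arrays are 8 mice. No array of either genotype read the only *Cnr1* probe well above background, and the genotypes rest on the labels.

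Introns are removed from pre-mRNA by the spliceosome, which assembles from small nuclear ribonucleoproteins (snRNPs). Each snRNP is a short RNA with particle-specific proteins and, in most of them, a ring of Sm proteins. U1 reads the start of the intron and U2 its branch point, after which the U4/U6.U5 tri-snRNP joins and the catalytic centre forms. Which sites are used is tuned by SR proteins, which mostly favour exons and are phosphorylated by CLK kinases, and by hnRNPs, which coat the transcript and often oppose them.

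The slide that carried all arrays held the controls in row 1 and the knockouts in row 2, and the effect of row cannot be told apart from that of genotype. The array of hCNR1-/- replicate 4 stood apart. The 75th percentile of its spot intensities was 29.3, against 62.0 to 139 on the other 7 arrays, and 28.6% of its spots were well above background, a lower share than on any other array. The mean log2 signal of 20 hepatocyte markers ran from 7.99 to 8.54 in hCNR1+/+ and from 7.95 to 8.34 in hCNR1-/- arrays. All 12 tested Kupffer cell markers were lower on average in hCNR1-/- arrays, with list means of 1.03 to 2.22 in hCNR1+/+ and -0.05 to 0.72 in hCNR1-/- arrays; *Timd4* and *Cd163* of the 16 listed were above background on no array. The part of these other cells in the results was not tested. In bulk RNA, fewer cells of a type and less RNA per cell cannot be told apart.

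Few splicing genes passed the test. At an adjusted p below 0.05, 1 of the 66 tested genes fell (*Srsf5*) and 2 rose (*Srsf11* and *Snrpd2*) in hCNR1-/- hepatocytes. These 3 genes are 4.55% of those tested, while 4.24% of all 11072 genes were called at this threshold, 2.94% as higher and 1.3% as lower; the share among the splicing genes was close to this background. The median log2 fold change was 0.10 over the 66 genes and 0.08 over all genes. At a fold change above 2 with an unadjusted p below 0.05, 4 genes were higher and 1 was lower, against 4.78% and 3.75% of all genes. At an unadjusted p below 0.05 without a fold limit, 14 (21.2%) were higher and 4 (6.06%) were lower, against 14.7% and 6.92% of all genes. For 45 of the 66 the log2 fold change lay within 0.5 of 0, beside 7158 of all 11072 genes. The whole range over the 66 ran from -1.23 to 1.24.

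**Figure D1:**
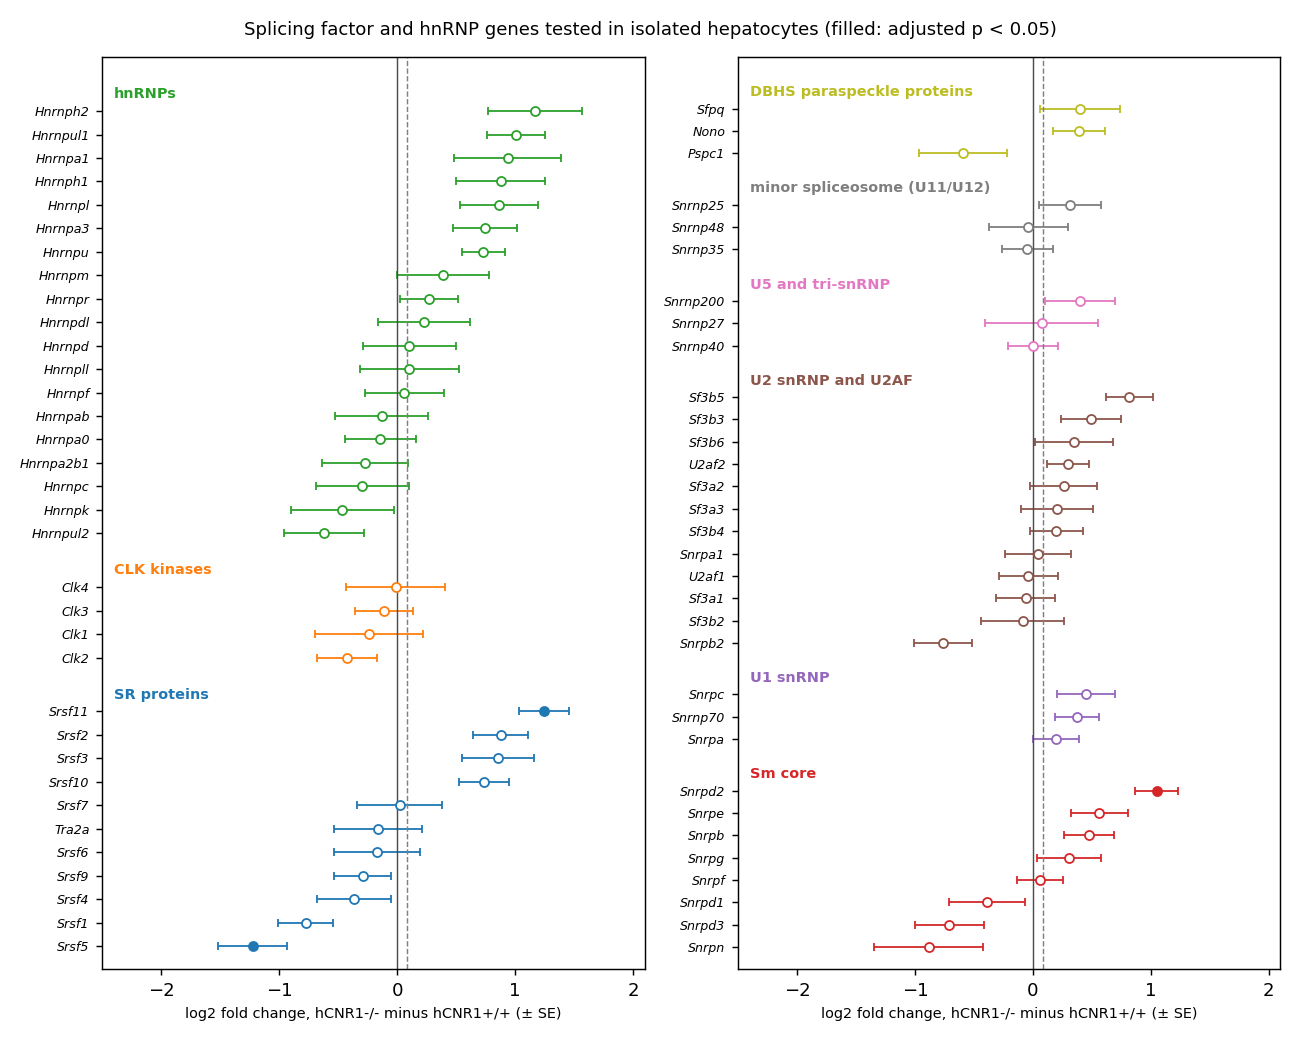
Log2 fold change (hCNR1-/- minus hCNR1+/+, 4 arrays each) of the 66 tested genes, with its standard error as the bar, ordered within 9 role groups; filled points have an adjusted p below 0.05, and the dashed line is the median of all 11072 genes (0.08). *Srsf5* (-1.23), *Srsf11* (1.24) and *Snrpd2* (1.05) are the filled points, and 40 of the 66 genes (60.6%) lie above 0, against 56.6% of all genes.

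*Srsf5* encodes an SR protein that was first known as an insulin-induced gene of regenerating liver. Levels are given here as log2 of the spot signal over the 75th percentile of its array, in the order of replicates 1 to 4. *Srsf5* had 5.02, 4.21, 4.78 and 4.32 in hCNR1+/+ and 3.84, 3.39, 3.43 and 2.75 in hCNR1-/- mice. Every hCNR1-/- array lay below every hCNR1+/+ array. The means were 4.58 ± 0.38 and 3.35 ± 0.45 (SD, n = 4 each), a 2.34-fold fall with a log2 fold change of -1.23 ± 0.29 (SE) and an adjusted p of 0.0479. The exact permutation test over arrays gave p = 0.0286, the smallest value that 4 against 4 arrays allow. Any gene whose groups do not overlap gets this value, so it adds nothing to the lack of overlap. Of all genes tested, 17.8% had no overlap between genotypes.

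*Srsf11*, which encodes an arginine-serine-rich protein that contacts U2AF, went the other way. Its log2 signals were 1.96, 2.04, 2.27 and 2.30 in hCNR1+/+ and 3.16, 3.26, 3.77 and 3.35 in hCNR1-/- mice. The groups did not overlap, and hCNR1-/- replicate 4 lay among its group. The log2 fold change was 1.24 ± 0.21 (SE), a 2.37-fold rise with an adjusted p of 0.0199 and an exact permutation p of 0.0286.

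*Snrpd2* encodes SmD2, a subunit of the Sm ring shared by most spliceosomal snRNPs. It was read by 3 probes. On the probe used for the gene the log2 signals were 6.13, 6.43, 6.46 and 6.32 in hCNR1+/+ and 7.38, 7.46, 7.40 and 7.30 in hCNR1-/- mice. The spread within the groups (SD 0.15 and 0.07) was small beside the difference, and no array overlapped with the other genotype. The log2 fold change was 1.05 ± 0.18 (SE), a 2.07-fold rise with an adjusted p of 0.0203 and an exact permutation p of 0.0286. The other probes gave 0.98 and 1.02, each with all 4 hCNR1-/- arrays above all 4 hCNR1+/+ arrays.

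The calls for these 3 genes depended on single arrays. Each was called on 4 of 10 other processing settings, and the direction was kept on all 10. When each array was left out in turn, *Srsf11* stayed called in 4 of 8 fits (adjusted p 0.0126 to 0.076), *Snrpd2* in 2 (0.00893 to 0.0807) and *Srsf5* in 1, that without hCNR1-/- replicate 4 (0.0324 to 0.147). Without hCNR1+/+ replicate 3 none of them was called, with an adjusted p of 0.147 for *Srsf5*, 0.076 for *Srsf11* and 0.0807 for *Snrpd2*. The same held without hCNR1+/+ replicate 2 (0.0749, 0.0566 and 0.0545) and without hCNR1-/- replicate 1 (0.0749, 0.0512 and 0.0609) or replicate 3 (0.106, 0.0636 and 0.0699).

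The sequence before a start site of these 3 genes is shown because they are the genes that passed the test. Each is the 250 bases upstream of a RefSeq start, taken from RefSeq (GRCm38.p6) and written 5′ to 3′ on the strand of the gene. Capitals mark TGACG or its reverse complement, a half-site of the cyclic AMP response element, to which factors activated by cyclic AMP signalling can bind. The full element is TGACGTCA. The windows are chr12:80945249-80945498 on the plus strand for *Srsf5*, chr3:158036607-158036856 on the minus strand for *Srsf11* and chr7:19149588-19149837 on the plus strand for *Snrpd2*.
Srsf5: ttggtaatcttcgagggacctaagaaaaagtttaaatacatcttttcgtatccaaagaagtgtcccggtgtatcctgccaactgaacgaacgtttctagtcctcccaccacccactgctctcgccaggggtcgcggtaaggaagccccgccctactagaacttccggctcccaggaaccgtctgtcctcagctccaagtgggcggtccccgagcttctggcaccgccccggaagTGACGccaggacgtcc
Srsf11: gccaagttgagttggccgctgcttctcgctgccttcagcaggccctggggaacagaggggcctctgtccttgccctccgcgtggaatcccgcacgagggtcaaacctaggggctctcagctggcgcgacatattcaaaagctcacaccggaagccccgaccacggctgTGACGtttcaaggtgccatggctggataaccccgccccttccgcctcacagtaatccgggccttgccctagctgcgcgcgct
Snrpd2: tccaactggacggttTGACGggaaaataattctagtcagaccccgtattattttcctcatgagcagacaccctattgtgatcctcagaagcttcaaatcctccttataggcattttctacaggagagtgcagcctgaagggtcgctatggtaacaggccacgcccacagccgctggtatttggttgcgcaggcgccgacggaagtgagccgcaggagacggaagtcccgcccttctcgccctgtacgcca
Each window held TGACG 1 time, with its first base at -16 in *Srsf5*, -82 in *Srsf11* and -235 in *Snrpd2*, counted back from the base before the start as -1. A second listed start of *Srsf11* (chr3:158031749-158031998) had none. Of the 32851 windows of this length in the table, 17.8% held TGACG on either strand, and of the 75 windows of 57 tested splicing genes 28 (37.3%) did. All 3 windows also held the GC box GGGCGG, as did 32.7% of all windows and 68.0% of those of the splicing genes. CCGGAA, the core of ETS factor motifs, was found for *Srsf5* and *Srsf11*, and in 12.0% of all windows and 41.3% of those of the splicing genes. TATAAA and CCAAT were in none of the 3, against 12.4% and 33.8% of all windows. The full element TGACGTCA was also in none of the 3, against 1.55% of all windows and 5.33% of those of the splicing genes. These letters are a description of the windows, and binding was not measured.

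**Figure D2:**
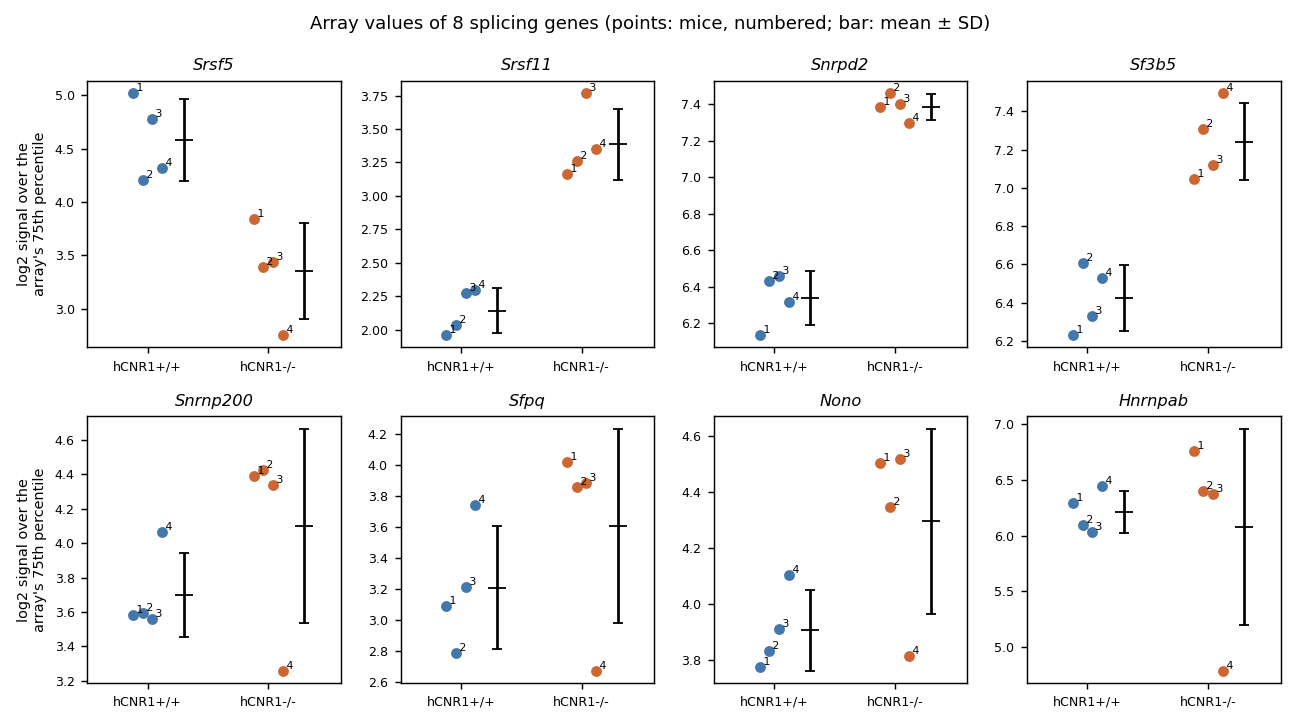
Log2 signal relative to the 75th percentile of each array (y axis, a separate scale in each panel) in hCNR1+/+ and hCNR1-/- hepatocytes, 1 numbered point per mouse, with mean ± SD beside the points. In *Srsf5*, *Srsf11*, *Snrpd2* and *Sf3b5* the genotypes do not overlap, whereas in *Snrnp200*, *Sfpq*, *Nono* and *Hnrnpab* hCNR1-/- replicate 4 lies well below the other 3 hCNR1-/- mice.

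Of the SR proteins, 11 of 13 genes were tested, and they were split in direction: 5 had a positive and 6 a negative log2 fold change, with a median of -0.16. The called *Srsf5* and *Srsf11* are 18.2% of the 11, against 4.24% of all genes. At an unadjusted limma p below 0.05, 4 (36.4%) were higher and 2 (18.2%) lower, against 14.7% and 6.92% of all genes. The genotypes did not overlap in 3 higher (27.3%) and 2 lower (18.2%) genes, against 12.7% and 5.04% of all genes. *Srsf1*, a founding member of the family, gave 1.25, 0.81, 1.26 and 0.98 in hCNR1+/+ and 0.60, 0.22, 0.54 and -0.16 in hCNR1-/- mice on the probe used for the gene. These groups did not overlap, with a log2 fold change of -0.78 ± 0.23 (SE), an adjusted p of 0.0953 and an exact permutation p of 0.0286. Its other probe gave 1.03 with an SE of 0.61, and on that probe hCNR1+/+ replicate 4 was at -4.32 and the other hCNR1+/+ arrays at -2.34 to -1.32. *Srsf3*, the smallest SR protein, had 3.05, 3.02, 2.62 and 2.08 in hCNR1+/+ and 3.96, 3.55, 3.78 and 2.89 in hCNR1-/- arrays. The log2 fold change was 0.85 ± 0.31 (SE, adjusted p = 0.149), with hCNR1-/- replicate 4 within the hCNR1+/+ range, and its other probe gave -0.64 with an SE of 0.55. *Srsf9* had 4.48, 4.19, 4.47 and 4.55 in hCNR1+/+ and 4.32, 4.35, 4.35 and 3.49 in hCNR1-/- arrays, for a log2 fold change of -0.29 ± 0.25 (SE, adjusted p = 0.522). *Srsf2* and *Srsf10*, named after their values were seen, did not overlap between genotypes on the probe used for each gene. They had log2 fold changes of 0.88 and 0.73, with adjusted p-values of 0.0669 and 0.0823. The other *Srsf2* probe gave 0.11 ± 0.25 (SE), and its groups overlapped. On that probe hCNR1-/- replicate 4 was the lowest array at 0.79, while on the probe used for *Srsf2* it was the highest at 3.36. *Srsf4*, *Srsf6*, *Srsf7* and *Tra2a* had log2 fold changes of -0.36 to 0.02 on the probe used for each gene. The other *Srsf6* probe gave -1.08 ± 0.50 (SE, adjusted p = 0.248), and its groups overlapped.

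All 4 CLK kinase genes were tested with limma, and 0 passed the adjusted test or an unadjusted p below 0.05. Of all genes 4.24% passed the adjusted test, and 14.7% were higher and 6.92% lower at the unadjusted p. With 4 genes, a count of 0 cannot be told apart from these shares. *Clk1* ran from -1.76 to 0.53 in hCNR1+/+ and from -1.20 to -0.38 in hCNR1-/- arrays, a log2 fold change of -0.24 ± 0.46 (SE). *Clk2* had 2.38, 2.25, 2.33 and 2.53 in hCNR1+/+ and 2.25, 2.29, 1.93 and 1.31 in hCNR1-/- arrays, a log2 fold change of -0.43 ± 0.25 (SE, adjusted p = 0.362). The groups overlapped in both. *Clk3* (-0.11 ± 0.24) and *Clk4* (-0.01 ± 0.42) differed by less than their standard errors on the probe used for each gene. The other *Clk4* probe gave -0.69 ± 0.43 (SE, adjusted p = 0.394). Of the kinases outside the family that also phosphorylate SR proteins, 3 of 5 listed genes were tested and none was called, with log2 fold changes of 0.06 to 0.72.

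Of the hnRNPs, 19 of 20 genes were tested, 13 with a positive and 6 with a negative log2 fold change (median 0.23), and 0 passed the adjusted limma test, while 6 (31.6%) were higher and 0 lower at an unadjusted p below 0.05, against 14.7% and 6.92% of all genes. *Hnrnph2*, which encodes a protein that binds runs of G, had -0.13, -0.45, -0.26 and 0.31 in hCNR1+/+ and 0.52, 0.48, 0.87 and 2.27 in hCNR1-/- mice. The groups did not overlap, but replicate 4 was far above the other hCNR1-/- mice. The log2 fold change was 1.17 ± 0.40 (SE, adjusted p = 0.128), and 0.76 without that array (adjusted p = 0.0545). *Hnrnpul2*, an hnRNP U-like gene, had -1.09, -1.08, -1.38 and 0.05 in hCNR1+/+ and -0.92, -1.73, -1.68 and -1.66 in hCNR1-/- arrays, a log2 fold change of -0.62 ± 0.34 (SE, adjusted p = 0.321). *Hnrnpab*, whose product binds AU-rich RNA, had 6.29, 6.09, 6.03 and 6.44 in hCNR1+/+ and 6.75, 6.40, 6.38 and 4.79 in hCNR1-/- arrays. Its log2 fold change was -0.13 ± 0.39 (SE), and 0.30 without hCNR1-/- replicate 4.

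Some hnRNP genes lay just outside the threshold and are named after their values were seen. *Hnrnpul1*, also hnRNP U-like, had 1.02, 0.78, 0.96 and 1.16 in hCNR1+/+ and 1.88, 1.58, 1.92 and 2.58 in hCNR1-/- arrays, a log2 fold change of 1.01 ± 0.25 (SE, adjusted p = 0.0519). *Hnrnpu*, which encodes a scaffold attachment factor, had 1.61, 1.39, 1.53 and 1.55 in hCNR1+/+ and 2.30, 2.18, 2.41 and 2.11 in hCNR1-/- arrays, a log2 fold change of 0.73 ± 0.18 (SE, adjusted p = 0.0529). In both, all 4 hCNR1-/- arrays were above all hCNR1+/+ arrays. Counting every role, 10 of the 66 genes (15.2%) were higher in hCNR1-/- hepatocytes with no overlap between genotypes and 3 (4.55%) were lower, against 12.7% and 5.04% of all genes.

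The Sm core was read in full, with 8 of 8 genes tested. Besides *Snrpd2* none was called at the adjusted p, although these proteins join the same ring. Their log2 fold changes ran from -0.88 (*Snrpn*) through -0.71 (*Snrpd3*), -0.39 (*Snrpd1*) and 0.06 (*Snrpf*) to 0.56 (*Snrpe*). At an unadjusted limma p below 0.05, 3 of the 8 (37.5%, with *Snrpd2*) were higher and 1 (12.5%) was lower. The shares of all genes were 14.7% and 6.92%. *Snrpd3* was lower with no overlap between genotypes (adjusted p = 0.202). *Snrpn*, an imprinted gene whose product SmN stands in for SmB in neurons, had 0.37, -0.17, 0.02 and 0.00 in hCNR1+/+ and 0.22, -0.64, -0.60 and -2.30 in hCNR1-/- mice (adjusted p = 0.302). The difference rests largely on replicate 4 of hCNR1-/-, without which the log2 fold change was -0.39.

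The U1-specific genes *Snrpa*, *Snrnp70* and *Snrpc* had log2 fold changes of 0.20, 0.37 and 0.45, none of them called. *Snrpc*, whose protein steadies the pairing of U1 with the intron start, had 4.93, 5.09, 5.11 and 4.75 in hCNR1+/+ and 5.41, 5.85, 5.55 and 4.87 in hCNR1-/- arrays. Only hCNR1-/- replicate 4 fell within the hCNR1+/+ range, and the adjusted p was 0.315 with it and 0.0486 without it.

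Of the U2 snRNP and U2AF genes 12 of 13 were tested, 8 with positive and 4 with negative log2 fold changes (median 0.20), and 0 passed the adjusted limma test, with 1 higher and 1 lower (8.33% each) at an unadjusted p below 0.05, against 14.7% and 6.92% of all genes. *Sf3b5*, a small subunit of the SF3b complex that grips the branch point, came closest. It had 6.23, 6.60, 6.33 and 6.53 in hCNR1+/+ and 7.05, 7.31, 7.12 and 7.49 in hCNR1-/- arrays, with no overlap and a log2 fold change of 0.82 ± 0.20 (SE). Its adjusted p was 0.0515, and the exact permutation p was 0.0286. *Snrpb2*, the U2B'' protein, had 3.42, 3.11, 2.83 and 2.97 in hCNR1+/+ and 2.20, 2.28, 2.85 and 1.96 in hCNR1-/- arrays, a log2 fold change of -0.76 ± 0.25 (SE, adjusted p = 0.113), with replicate 3 of hCNR1-/- inside the hCNR1+/+ range.

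The U2AF subunits read the end of the intron. *U2af1*, whose product reads the terminal AG, had 6.75, 6.66, 6.87 and 7.19 in hCNR1+/+ and 6.85, 7.08, 7.13 and 6.24 in hCNR1-/- arrays, a log2 fold change of -0.04 ± 0.25 (SE). *U2af2*, which reads the pyrimidine tract, had 0.71, 0.74, 0.63 and 0.72 in hCNR1+/+ and 1.16, 1.02, 0.97 and 0.84 in hCNR1-/- arrays. These groups did not overlap, yet the log2 fold change of 0.29 ± 0.18 (SE) had an adjusted p of 0.373. The second probe of *U2af1* had 2.24, 2.12, 2.38 and 2.78 in hCNR1+/+ and 1.80, 1.64, 2.03 and 0.50 in hCNR1-/- arrays. Unlike on the probe used for the gene, all 4 hCNR1-/- arrays lay below all hCNR1+/+ arrays there, with a log2 fold change of -0.89 ± 0.34 (SE), an adjusted p of 0.165 and an exact permutation p of 0.0286. The second probe of *U2af2* gave -0.07 and was not called.

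Among the tri-snRNP genes *Snrnp200*, the helicase that unwinds U4 from U6, had 3.58, 3.59, 3.56 and 4.07 in hCNR1+/+ and 4.39, 4.43, 4.34 and 3.26 in hCNR1-/- arrays. Its log2 fold change was 0.40 ± 0.30 (SE, adjusted p = 0.465), and 0.69 without hCNR1-/- replicate 4 (adjusted p = 0.0394). The other *Snrnp200* probe gave 0.08 ± 0.37 (SE) with all arrays. *Snrnp40* and *Snrnp27* had 0.00 ± 0.21 and 0.08 ± 0.48. Of the minor spliceosome, which removes a rare class of introns, *Snrnp35* had -0.05 ± 0.21, *Snrnp48* -0.04 ± 0.33 and *Snrnp25* 0.32 ± 0.26. Of these tri-snRNP and minor spliceosome genes, and of the U1 genes above, 0 had an unadjusted limma p below 0.05. Of all genes 14.7% were higher and 6.92% lower at this limit.

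*Sfpq*, *Nono* and *Pspc1* encode the DBHS proteins, which pair with each other and build paraspeckles, nuclear bodies assembled on the RNA Neat1. *Sfpq* had 3.09, 2.79, 3.22 and 3.74 in hCNR1+/+ and 4.02, 3.86, 3.88 and 2.67 in hCNR1-/- mice, and its log2 fold change was 0.40 ± 0.34 (SE, adjusted p = 0.529). *Nono* had 3.77, 3.83, 3.91 and 4.11 in hCNR1+/+ and 4.51, 4.35, 4.52 and 3.81 in hCNR1-/- arrays, a log2 fold change of 0.39 ± 0.22 (SE, adjusted p = 0.34). In both, 3 hCNR1-/- arrays lay above all hCNR1+/+ arrays and replicate 4 did not. *Pspc1* had 0.10, -0.58, -0.08 and -0.30 in hCNR1+/+ and -0.28, -0.35, -0.64 and -1.96 in hCNR1-/- arrays, a log2 fold change of -0.59 ± 0.37 (SE, adjusted p = 0.392). Of the DBHS genes 0 had an unadjusted limma p below 0.05, against 14.7% of all genes higher and 6.92% lower. The RNA their proteins bind, *Neat1*, named after its value was seen, was called lower. *Neat1* fell from 6.10, 5.49, 5.56 and 3.39 to 1.09, 2.03, 1.67 and 2.38 on its 1 probe, with no overlap between genotypes. The log2 fold change was -3.34 ± 0.55 (SE, adjusted p = 0.0188). At this threshold 1.3% of all genes were called lower. The call for *Neat1* was not examined under other settings, and a link to the DBHS genes was not tested.

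The array of hCNR1-/- replicate 4 was the lowest of the 4 hCNR1-/- arrays for 53 of the 66 splicing genes (80.3%), against 53.3% of all genes, and its median difference from the mean of the other 3 was -0.77 over the splicing genes and -0.33 over all genes. Relative to the hCNR1+/+ mean, the median splicing gene stood at 0.36, 0.38 and 0.36 on the other hCNR1-/- arrays and at -0.44 on replicate 4. The medians of all genes on these arrays were 0.18, 0.23, 0.13 and -0.18. Not every gene was low there: *Snrnp27* was 2.19 lower than the mean of the other hCNR1-/- mice on the log2 scale, while *Hnrnph2* was 1.65 higher.

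**Figure D3:**
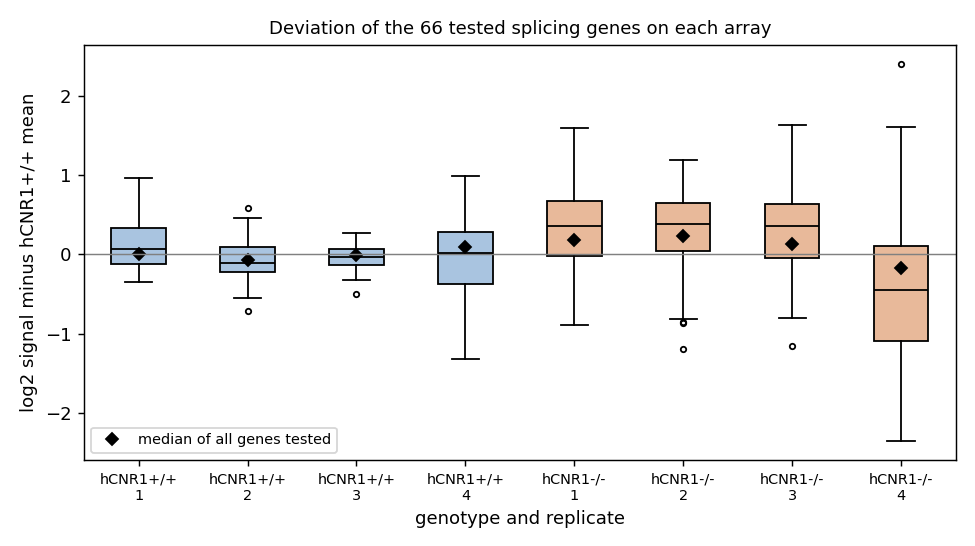
Log2 signal of the 66 tested splicing genes on each array minus the mean of the 4 hCNR1+/+ arrays (boxes: quartiles and median, whiskers to 1.5 times the box height, circles beyond), with the median of all 11072 genes as a diamond. The splicing gene medians are 0.36 to 0.38 on hCNR1-/- replicates 1 to 3 and -0.44 on replicate 4, whose box is the widest.

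Without hCNR1-/- replicate 4, 15 splicing genes were called higher and 1 lower. These are 22.7% and 1.52% of the 66, against 10.1% and 2.92% of all genes called in the same fit, and the median log2 fold change was 0.33, against 0.17 over all genes. The 15 came from most roles: the SR genes *Srsf2*, *Srsf3*, *Srsf10* and *Srsf11*, the hnRNPs *Hnrnpa1*, *Hnrnpu* and *Hnrnpul1*, the Sm genes *Snrpb*, *Snrpd2* and *Snrpe*, *Snrpc* of U1, *Sf3b3* and *Sf3b5* of U2, *Snrnp200* and *Nono*. On the probe used for each gene, their log2 fold changes in that fit ran from 0.55 (*Nono*) to 1.39 (*Hnrnpa1*). The other *Hnrnpa1* probe was not higher, with -1.26, -2.02 and -1.91 on hCNR1-/- replicates 1 to 3 and -1.73 to -1.23 on hCNR1+/+ arrays. *Srsf5* was again the one called lower (-1.03, adjusted p = 0.0324). The array was left out here because it stood apart in signal, and whether the mouse, its hepatocyte preparation or its hybridisation differed was not tested.

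Probes of the same gene did not always agree. Of 28 splicing genes with more than 1 tested probe, 11 had probes of opposite sign, and the median range between the probes of a gene was 0.45 (log2). Neither value was computed over all genes, so they cannot be read as particular to splicing genes. Tested probe by probe, 8 of 100 splicing probes were called, 7 higher and 1 lower, against 4.64% of all 13998 probes. Beside the probes of *Srsf5*, *Srsf11* and *Snrpd2*, they read *Hnrnpa3* and *Hnrnpf*. More than 1 of them read *Snrpd2* and more than 1 read *Hnrnpa3*, so the 8 probes are not 8 separate genes. The share of all probes called in each direction was not counted.

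*Hnrnpa3*, an A/B-type hnRNP, showed the widest range. On the probe used for the gene it had 4.17, 3.55, 3.24 and 3.04 in hCNR1+/+ and 4.41, 4.30, 4.29 and 3.97 in hCNR1-/- arrays, a log2 fold change of 0.74 ± 0.27 (SE, adjusted p = 0.15). The 3 other probes annotated to the same transcript record gave 1.49 (adjusted p = 0.0306), 1.24 (adjusted p = 0.0427) and 0.15, while both probes annotated to another record of the gene gave -0.75 and -0.79. *Hnrnpf*, which like *Hnrnph2* encodes a reader of G runs, had a log2 fold change of 0.06 on the probe used for the gene and 1.36 ± 0.26 (SE, adjusted p = 0.0272) on the other, where the arrays stood at 0.83, 0.75, 0.84 and 1.39 in hCNR1+/+ and 2.20, 1.95, 2.18 and 2.90 in hCNR1-/- mice. For 9 of the 28 genes, hCNR1-/- replicate 4 was the lowest of its group on one probe and the highest on another. The share of all genes for which this holds was not counted. Which transcripts, or near-identical gene copies, each probe reads was not tested.

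**Figure D4:**
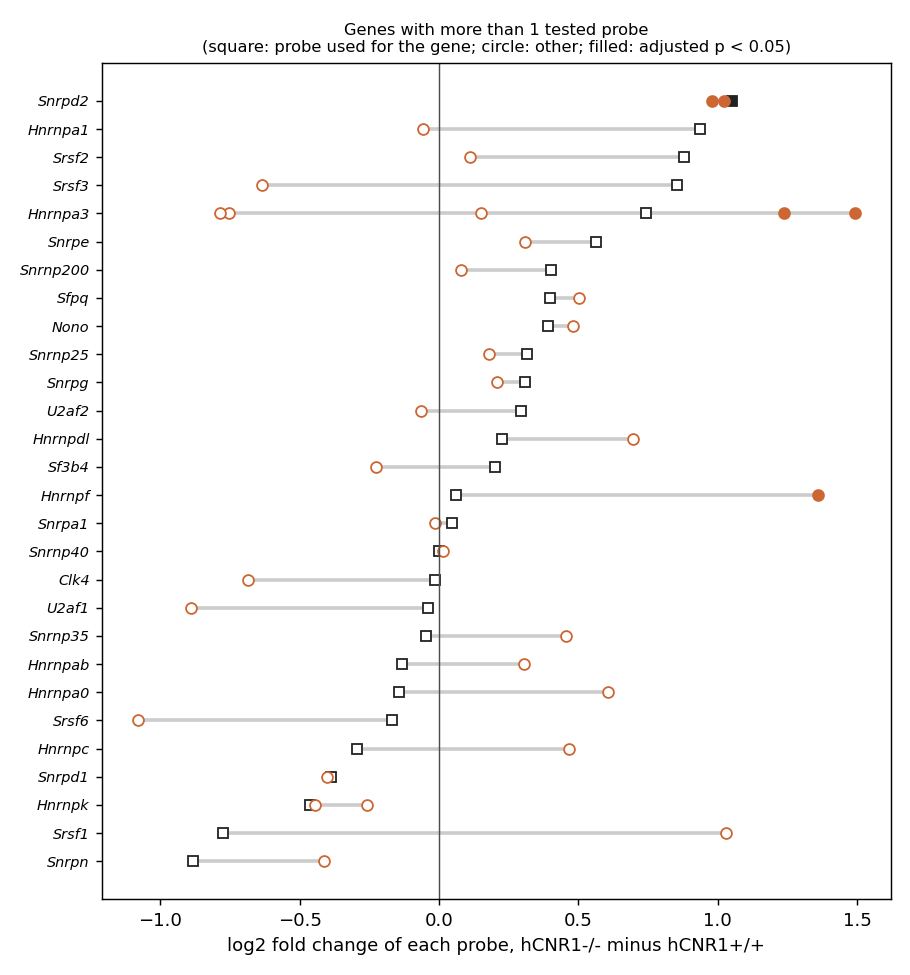
Log2 fold change (hCNR1-/- minus hCNR1+/+) of every tested probe for the 28 splicing genes with more than 1, joined by a grey bar; squares are the probe used for the gene, circles the others, and filled symbols have an adjusted p below 0.05. The 3 *Snrpd2* probes lie together at 0.98 to 1.05, and the 6 *Hnrnpa3* probes span -0.79 to 1.49.

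Of 103 other genes of the splicing machinery in 4 lists, 94 were tested; 4 rose (4.26%) and 0 fell, against 2.94% and 1.3% of all genes. The share called in either direction was close to the 4.24% of all genes, and the median log2 fold change was 0.18, beside 0.08 over all genes. At an unadjusted p below 0.05, 26 of them (27.7%) were higher and 3 (3.19%) lower, against 14.7% and 6.92% of all genes. Those called were *Ddx23* (1.79 ± 0.27 SE, adjusted p = 0.015) and *Dhx38* (1.00 ± 0.22, adjusted p = 0.0393), RNA helicases of the spliceosome core, *Rbm25* (1.84 ± 0.42, adjusted p = 0.0448), a partner of SR proteins, and *Tial1* (0.83 ± 0.19, adjusted p = 0.0434), which promotes U1 binding at weak sites. *Ddx23* had -0.85, -1.29, -1.08 and -0.90 in hCNR1+/+ and 0.51, 0.47, 0.56 and 1.51 in hCNR1-/- arrays, and in each of the 4 genes the genotypes did not overlap. By list, 2 of 47 core spliceosome genes, 1 of 14 SR-related and exon junction genes, 1 of 30 other splicing regulators and 0 of 3 kinases were called.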

How the data were processed

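Agilent Feature Extraction version 12.0.3.1 wrote the deposited spot intensities, which are background-corrected within each array and not scaled between arrays; the authors also deposited a score per spot, within 0.005 of the z-score of its log intensity. The log2 intensity minus the log2 of the 75th percentile over 59305 non-control spots was used. Spots with outlier flags were dropped and the spots of a probe averaged. Accessions were matched to RefSeq symbols (28331 of 55681 probes). Genes had a probe well above background (at least 50% of its spots flagged so) on at least 4 of 8 arrays, and the brightest probe stood for the gene. lmFit and eBayes of limma 3.58.1 in R 4.3.3 were fitted on all 11072 genes, two-sided, with Benjamini-Hochberg adjustment; exact permutation tests used all 70 assignments of arrays. The fit was tested on simulated data. Genes, lists and tests were chosen with earlier results of these data known. Named genes are those called, the brightest, lowest and highest fold change of each role, *Sfpq*, *Nono*, *Pspc1*, *Clk1* to *Clk4*, *U2af1*, *U2af2*, and genes whose probes differ in sign and by more than 1. The alternatives were other scalings, background corrections, filters and probe rules, array weights, a replicate block and leaving out each array. Marker lists of sinusoidal endothelial (6 of 9 tested markers lower), stellate (2 of 2 lower), lymphocyte (0 of 3 lower), neutrophil (1 of 1 lower) and cholangiocyte (1 of 3 lower) genes were described only.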

Additional observations from a re-analysis of the deposited data

Results flagged for a closer look

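The 54 groups of 4 arrays were 26 named splicing genes and the median log2 signal of the tested splicing genes, in each genotype. An array was flagged when its gap to the nearest other, as a share of the whole range, exceeded Dixon's limit for 4 values. Chance passes this limit in about 1 of 20 groups, and 5 of the 54 passed it. In 3 of them hCNR1-/- replicate 4 was the array apart: *Srsf9* (gap 0.957 of the range, 3.49 against 4.32 to 4.35), *Snrnp200* (0.923, 3.26 against 4.34 to 4.43) and *Sfpq* (0.882, 2.67 against 3.86 to 4.02). *Snrnp200* also had hCNR1+/+ replicate 4 apart (0.931, 4.07 against 3.56 to 3.59). *Hnrnpul2* had hCNR1-/- replicate 1 apart (0.917, -0.92 against -1.73 to -1.66). The median log2 signal was not flagged, with hCNR1-/- replicate 4 at 2.95 against 3.72 to 3.92. The median deviation from the hCNR1+/+ mean, a different measure, was not among the groups. There replicate 4 stood at -0.44 against 0.36 to 0.38.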

How the results depend on the processing

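The counts of called genes changed with most settings. At an adjusted p below 0.05, 0 splicing genes were lower and 0 higher with median scaling, no scaling, the deposited z-scores, normexp background correction, no filter on dim probes or the replicate block. The shares of all genes called under these settings were not counted, so a count of 0 cannot be read as particular to splicing genes. When a probe had to exceed background on each of the 8 arrays, 5 of 62 were higher, against 4.07% of all 8371 genes left. With array weights 2 of 66 were lower and 23 higher, against 5.83% and 19.7% of all genes. At a fold change above 2 with an unadjusted p below 0.05, 2 were higher with quantile normalization, 0 with no scaling and 1 with normexp. Leaving out each array in turn gave 0 to 1 lower and 0 to 15 higher at the adjusted p, 1 to 2 lower and 3 to 6 higher at the fold limit, and a median log2 fold change of 0.03 to 0.33. The 15 came from the fit without hCNR1-/- replicate 4, in which 10.1% of all genes were called higher. Shares of all genes were not counted for the other fits without an array, nor at the fold limit outside the main fit. Without scaling the median was -0.45, beside -0.47 over all genes, a shift that all genes share; 6 of the 26 named genes changed sign there, against at most 4 under any other setting. The causes were not tested. *Srsf5*, *Srsf11* and *Snrpd2* kept their direction in every setting run. The replicate numbers did not pair the arrays (correlations of same-numbered deviations 0.21, -0.16, -0.05 and 0.02), and under the replicate block the adjusted p of the 3 called genes was 0.0747 to 0.0838. The 4 arrays per genotype and, for dim probes, the background limit the precision.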
